A study of Homo sapiens with 22 samples.

Results

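Amino acid transporters carry amino acids and related small molecules across the plasma membrane and the lysosomal membrane. The genes described here are those of the solute carrier families SLC1, SLC3, SLC6, SLC7, SLC36, SLC38 and SLC43, chosen by gene name alone. The count table of 60240 genes held 59 of them. Of these, 35 had enough counts to be tested, among 20115 tested genes in all. The remaining 24 were at or near 0, as given below.

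Cells take up amino acids through several classes of carrier that work together. The light chains SLC7A5 and SLC7A8 pair with the heavy chain SLC3A2 and exchange large neutral amino acids such as leucine. SLC1A5 and members of the SLC38 family bring in glutamine with sodium, SLC7A1 and SLC7A2 carry arginine and lysine, and SLC7A11 takes up cystine in exchange for glutamate. Several of these genes are known targets of MYC or of ATF4, the transcription factor of the amino acid response, and they are known to be high in growing cells. Membership of a family does not fix the cargo: SLC6A8 carries creatine, SLC6A6 taurine, SLC6A11 GABA, SLC6A2 noradrenaline and SLC43A3 nucleobases.

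Progenitors of the blood lineages, grown from the human embryonic stem cell line H1, gave the polyA-selected RNA. Cells of the DOX arm carried ectopic MYC, a transcription factor of growth, switched on by doxycycline, and were taken at days 12, 14, 16, 18 and 20 of culture. The UT arm received no doxycycline and was collected on day 10 and on the same 5 days. There were 11 groups of 2 libraries, 22 in all, and every library carries the same batch number. All titles carry the same line name, no library had doxycycline without ectopic MYC, and nothing in the labels tells if the paired libraries came from different cultures. Effects of doxycycline and of MYC therefore cannot be told apart, and the p-values reflect how far paired libraries differ, which may be no more than technical error.

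Totals ran from 24730517 to 53508590 counts per library. MYC, the check of the labels, was higher in DOX over days 12 to 20 (1.78-fold, log2 fold change 0.83, SE 0.11, edgeR adjusted p = 4.33e-06). By day, MYC was called higher on days 12, 14 and 16 but not on day 18 (log2 0.65, edgeR adjusted p = 0.0505) or day 20 (0.31, edgeR adjusted p = 0.395), so this check of the labels gave no call on the last 2 days. Counts from mitochondrially encoded genes made up 11.3% ± 1.28 of the total in DOX and 10.6% ± 0.441 in UT at day 12, and 11.1% ± 2.96 in DOX and 13.7% ± 5.30 in UT at day 14 (SD, n = 2). The arms were farthest apart on day 16, at 20.2% ± 1.05 in DOX and 54.7% ± 1.71 in UT, followed by 36.7% ± 0.263 in DOX and 59.7% ± 4.41 in UT on day 18 and 57.0% ± 2.43 in DOX and 72.7% ± 0.332 in UT on day 20. Since these counts take up a growing part of each library, levels are given as CPM, counts set to a common library size, scaled by TMM, a factor that sets the bulk of genes equal, and every direction below is relative to the bulk of genes. Scaling by library size alone moved the all-gene median of the averaged comparison to 0.60 (log2), which is 0.08 with TMM. All 10 progenitor markers had counts. The summed CPM of 10 mast cell, basophil and eosinophil markers was 251 to 11600 in DOX and 778 to 33100 in UT on days 12 to 20, and 8 of the 9 tested were lower in DOX. The sum of 12 erythroid markers was 178 to 519 CPM in DOX and 82.4 to 393 in UT, with 10 higher and 1 lower. Among mast cell, basophil and eosinophil markers FCER1A was at 0. With mitochondrially encoded genes removed before the fit, few directional calls of the members reported here were lost. They were SLC38A6 on day 16 (log2 -0.63), and SLC6A12 (3.28) and SLC36A1 (0.50) between days 12 and 20 in DOX. That setting takes out the counts of these genes, not any difference between cells that goes with them. The part of cell makeup, or of such differences, in any result below was not tested. In such bulk libraries fewer cells of a type and less RNA per cell cannot be told apart.

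Per kilobase of exon, SLC43A3 had the highest mean level over the 11 groups at 36.1 CPM per kb, followed by the glutamine carrier SLC1A5 (22.3 CPM per kb), SLC7A5 (16.1), the glutamine carriers SLC38A2 (14.7) and SLC38A1 (9.79), and the heavy chain SLC3A2 (9.63). The order turned with time in both arms. SLC1A5 stood highest on days 12, 14 and 16 in DOX (32.1, 38.8 and 37.4 CPM per kb) and on day 10 in UT (30.9 CPM per kb). SLC43A3 stood highest on days 18 and 20 in DOX (36.7 and 54.6 CPM per kb) and from day 14 to day 20 in UT (26.7, 46.5, 71.1 and 54.9 CPM per kb). It was already among the 4 highest members in the earlier groups, with 21.1 CPM per kb on day 12 in DOX and 24.2 on day 10 in UT. On UT day 12 the leading members were close together, with SLC38A2 at 24.5, SLC7A5 at 21.7 and SLC1A5 at 21.0 CPM per kb. Summed over all 59 genes, the DOX level was 1179 ± 26.6 CPM at day 12 and 917 ± 37.6 at day 20, and in UT it was 1130 ± 48.6 CPM on day 10, 751 ± 50.01 on day 14 and 796 ± 10.7 on day 20 (SD, n = 2).

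The 24 members that were not tested were close to silent. SLC6A14, SLC38A8, SLC6A5 and SLC6A18 had 0 counts in every library, and the highest sum over all 22 libraries was 42 counts, for the arginine carrier SLC7A3. The other sums included 41 counts for SLC1A2, the main glutamate carrier of astrocytes, 39 for SLC3A1 and 30 for SLC7A9, the heavy and light chain of the renal cystine carrier, 21 for the serotonin carrier SLC6A4 and 5 for the dopamine carrier SLC6A3. Of the 59 members, 26 had counts in all 22 libraries.

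The main comparison asked whether ectopic MYC went with a different level of transporter RNA. Averaged over days 12 to 20, 15 of the 35 tested members were higher in DOX and 9 were lower, while 11 were not called. Over all tested genes 29.8% were called higher and 23% lower, 52.9% together. The members' median log2 fold change was 0.27, against 0.08 over all tested genes. Differences of at least 2-fold were found for 7 members higher and 2 lower, against 7.03% and 7.73% of all genes. Among the 7 were SLC6A11 and SLC6A15, whose fitted values depend on UT groups at 0 counts. With these set to a floor of 3 counts per library, SLC6A15 was under 2-fold (log2 0.92). Of the members called, 9 of the 15 higher and 7 of the 9 lower kept their direction from day to day. The averaged call is made from these daily differences, which by itself favours a shared direction. No matching share was counted for the other tested genes, so these counts only describe the members.

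**Figure D1:**
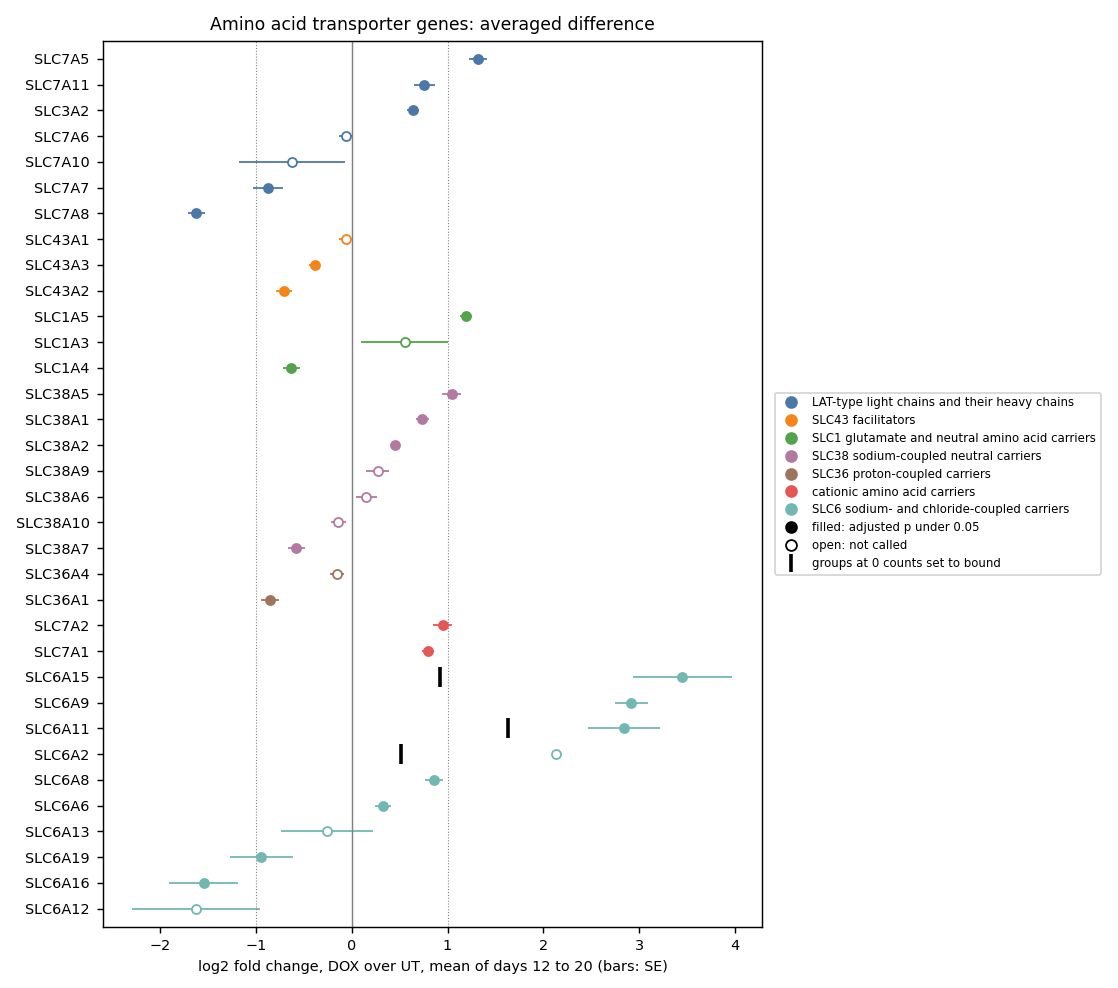
Averaged log2 fold change of DOX over UT (horizontal axis) for 34 of the 35 tested transporter genes, grouped by role, with bars for the standard error; filled points had an edgeR adjusted p under 0.05 and black ticks give the value with groups at 0 counts set to their floor. SLC6A15, SLC6A9 and SLC6A11 lie farthest to the right and SLC7A8 farthest to the left among called genes; SLC6A2 has no bar because its groups at 0 counts left no usable standard error.

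Among the light chains and their heavy chains, 7 of 10 members were tested, 3 were higher in DOX and 2 lower, and the light chains SLC7A5 and SLC7A8 stood at the opposite ends. SLC7A5 (LAT1, GRCh38 chr16:87830023-87869488, minus strand) had 126 and 119 CPM in DOX at day 12, 129 and 127 at day 14, 122 and 107 at day 16, 83.3 and 89.4 at day 18, and 57.7 and 46.3 at day 20. UT libraries had 109 and 92.7 CPM of SLC7A5 at day 10, 109 and 96.7 at day 12, 70.2 and 45.6 at day 14, 38.3 and 35.9 at day 16, 26.1 and 23.0 at day 18, and 11.3 and 19.8 at day 20. Both DOX libraries lay above both UT libraries on every shared day, and the level fell with time in both arms. The averaged difference was 2.49-fold (log2 1.31, SE 0.09, edgeR adjusted p = 1.41e-09). Day 12 gave no call (log2 0.25, SE 0.20, edgeR adjusted p = 0.687), unlike each later day, with 1.14 at day 14 and 1.74 at day 20.

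SLC7A8 (LAT2, chr14:23125295-23183674, minus strand), the alternative light chain for large neutral amino acids, went the other way. DOX libraries held 2.15 and 2.32 CPM at day 12, 3.15 and 3.29 at day 14, 2.99 and 2.22 at day 16, 3.44 and 4.44 at day 18, and 9.29 and 9.45 at day 20. UT libraries held 2.45 and 2.41 CPM at day 10, 3.51 and 3.14 at day 12, 6.52 and 4.62 at day 14, 13.4 and 12.2 at day 16, 22.4 and 19.2 at day 18, and 41.1 and 37.0 at day 20. Each DOX pair lay below its UT pair, and SLC7A8 rose with time in both arms. Averaged over days it was 3.08-fold lower in DOX (log2 -1.62, SE 0.09, edgeR adjusted p = 7.98e-11), with calls on days 14 to 20. The day 14 call (log2 -0.79) was lost without DOX day 14 replicate 1 or UT day 14 replicate 1 (-0.74 and -0.51).

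Because the level of each library cancels in a ratio of 2 genes, the balance between these light chains does not depend on the scaling. SLC7A5 to SLC7A8, per kilobase, was 64.7 to 74.0 in DOX on day 12 and 6.18 to 7.84 on day 20. In UT it was 48.5 to 56.1 on day 10, 38.9 to 39.4 on day 12, 3.60 to 3.73 on day 16 and 0.346 to 0.674 on day 20. Per kilobase, SLC7A8 RNA thus exceeded SLC7A5 RNA only in the UT day 20 libraries, out of all 22. The pair was chosen after the values were seen, and no test is given for it.

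**Figure D2:**
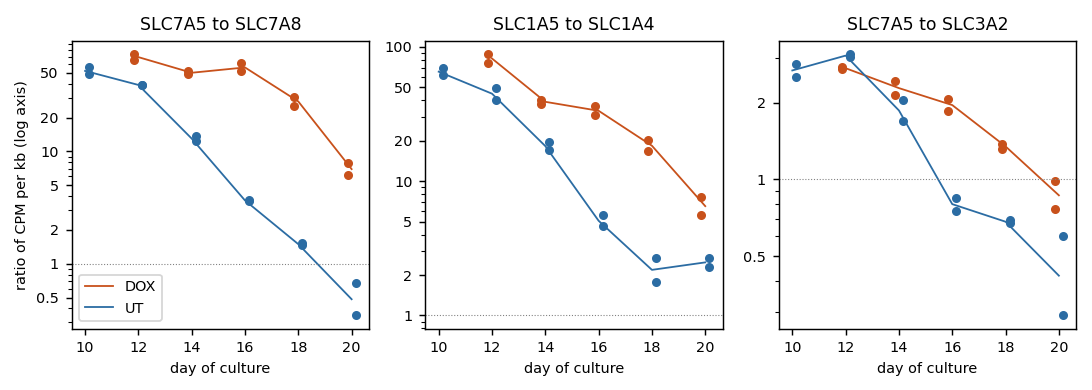
Ratio of CPM per kb between paired genes within each library (log axis) by day of culture, with points for libraries and lines through the groups' geometric means; the dotted line marks a ratio of 1. SLC7A5 to SLC7A8 falls to 0.346 to 0.674 in UT on day 20 and is 6.18 to 7.84 in DOX; SLC1A5 to SLC1A4 and SLC7A5 to SLC3A2 also end higher in DOX.

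SLC3A2, the heavy chain that brings these light chains to the membrane, was 46.9 to 70.6 CPM in DOX (median 64.2) and 29.3 to 55.4 CPM in UT (median 37.8) over days 12 to 20. It was 1.56-fold higher in DOX (log2 0.64, SE 0.06, edgeR adjusted p = 5.76e-08). While SLC7A5 fell in UT between days 10 and 20, the log2 change of SLC3A2 was -0.07 and not called (SE 0.14, edgeR adjusted p = 0.688). SLC7A11, the cystine carrier, was 6.80 to 35.1 CPM in DOX (median 20.5) and 5.41 to 18.4 CPM in UT (median 10.6), 1.69-fold higher in DOX (log2 0.76, SE 0.11, edgeR adjusted p = 7.25e-06). Both arms gained SLC7A11 between days 12 and 20, 4.16-fold in DOX and 2.44-fold in UT, but with library sizes alone the UT change was a fall (log2 -0.90). SLC7A7, a light chain for arginine and leucine exchange known from macrophages and kidney, was lower in DOX (log2 -0.87, SE 0.15, edgeR adjusted p = 0.000103), but its call was lost with library sizes alone (-0.35, edgeR adjusted p = 0.0608). Markers of monocytes and macrophages were lower in DOX as well, 8 of 9 tested, with summed CPM of 96.7 to 203 in DOX and 114 to 291 in UT. On day 20 alone, 1 of these 9 was called lower. Neutrophil markers (9 of 10) and mast cell, basophil and eosinophil markers (8 of 9 tested) were lower on average too. The part of any of these lists in the SLC7A7 result was not tested. SLC7A6, which shares 44.4% of its exon bases with SLC7A6OS on the opposite strand and is therefore uncertain, was not called on average (-0.06, and 0.47 with library sizes alone), and neither was SLC7A10 (-0.62).

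Promoter windows are shown for SLC7A5 and SLC7A8, which moved in opposite directions, and for SLC1A5 and SLC38A5, which were higher in DOX on every day, because all of them hold the E-box to which MYC and its relatives are known to bind. Sequences are from RefSeq on GRCh38.p14, 5′ to 3′ on the strand of the gene, from 250 bases before to 50 bases after a start, with the E-box CACGTG in capitals. SLC1A5 has 3 such windows and SLC7A8 has 4, and the window with the E-box is printed. For both genes that window lies inside the gene and not at its outermost start, and which start these cells use was not tested.
SLC7A5, chr16:87869458-87869757, minus strand: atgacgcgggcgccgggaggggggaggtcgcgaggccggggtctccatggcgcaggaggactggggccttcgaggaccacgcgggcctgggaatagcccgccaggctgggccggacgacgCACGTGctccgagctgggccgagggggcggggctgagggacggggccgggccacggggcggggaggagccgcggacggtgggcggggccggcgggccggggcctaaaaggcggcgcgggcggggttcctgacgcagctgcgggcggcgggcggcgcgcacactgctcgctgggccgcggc
SLC7A8, chr14:23154344-23154643, minus strand: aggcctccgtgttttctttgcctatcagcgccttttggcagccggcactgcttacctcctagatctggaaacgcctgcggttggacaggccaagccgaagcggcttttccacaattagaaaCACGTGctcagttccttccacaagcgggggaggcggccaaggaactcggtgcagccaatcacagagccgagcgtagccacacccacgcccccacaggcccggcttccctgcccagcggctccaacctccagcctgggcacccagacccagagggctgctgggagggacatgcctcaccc
SLC1A5, chr19:46787244-46787543, minus strand: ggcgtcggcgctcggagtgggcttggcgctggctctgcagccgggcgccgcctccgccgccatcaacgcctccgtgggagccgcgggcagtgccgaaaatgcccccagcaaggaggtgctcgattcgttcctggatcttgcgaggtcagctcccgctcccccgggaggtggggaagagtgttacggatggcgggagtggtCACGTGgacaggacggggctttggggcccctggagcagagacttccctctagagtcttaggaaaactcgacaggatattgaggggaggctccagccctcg
SLC38A5, chrX:48470211-48470510, minus strand: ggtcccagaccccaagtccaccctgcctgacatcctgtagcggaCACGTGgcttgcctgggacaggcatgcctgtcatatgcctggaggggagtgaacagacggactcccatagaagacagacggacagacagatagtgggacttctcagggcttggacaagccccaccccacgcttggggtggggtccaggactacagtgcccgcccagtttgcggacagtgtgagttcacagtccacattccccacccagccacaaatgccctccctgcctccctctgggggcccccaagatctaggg
The E-box begins 130 bases before the start in SLC7A5, 129 in the SLC7A8 window, 50 in the SLC1A5 window and 206 in SLC38A5. Of the 35 tested members, 27 had a window in the table, and CACGTG, which reads the same on both strands, was in 9 of them (33.3%), against 8.77% of all genes with a window. Per window the shares were 18.8% and 7.26%. The 9 members were 3 called higher in DOX (SLC7A5, SLC1A5 and SLC38A5), 5 called lower (SLC7A8, SLC7A7, SLC36A1, SLC38A7 and SLC6A16) and 1 not called (SLC43A1). SLC6A9, also called higher in DOX on all 5 days, had 1 window, and it held no CACGTG. The element TGATGCAA, which C/EBP and ATF4 are known to bind and which was searched on both strands, was in SLC1A5, SLC1A4 and SLC1A3 (11.1% of the 27 members, against 1.08% of genes). These members were called higher, called lower and not called. For both motifs the sets compared are unlike. The 27 members had passed the count filter, while the genes beside them were not filtered by counts. The members also had 48 windows for 27 genes, against 35116 windows for 27305 genes. A match of letters is a description of the sequence and not of binding.

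In the SLC1 family, 3 of 7 members were tested, and the closely related neutral carriers SLC1A5 and SLC1A4 differed in direction. SLC1A5 (ASCT2, chr19:46774883-46788594, minus strand) takes up glutamine in exchange for other neutral amino acids. DOX libraries had 113 and 101 CPM at day 12, 138 and 121 at day 14, 125 and 124 at day 16, 75.8 and 76.8 at day 18, and 60.2 and 52.0 at day 20. UT libraries had 105 and 101 CPM of SLC1A5 at day 10, 72.3 and 67.5 at day 12, 63.8 and 59.8 at day 14, 37.1 and 34.6 at day 16, 21.8 and 30.1 at day 18, and 29.7 and 28.99 at day 20. No DOX pair overlapped its UT pair, and the averaged difference was 2.28-fold (log2 1.19, SE 0.06, edgeR adjusted p = 2.54e-11). SLC1A5 was called higher on all 5 days, most on day 16 (3.47-fold). Its exons share 23.4% of their bases with the antisense gene AC008622.2, which had at most 124 counts in any group.

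SLC1A4 (ASCT1), a carrier of serine and alanine, was 2.37 to 19.4 CPM in DOX (median 7.73) and 2.84 to 26.9 CPM in UT (median 14.8). It was lower in DOX on average (1.55-fold, log2 -0.63, SE 0.09, edgeR adjusted p = 6.44e-06), with calls on day 16 (-0.92) and day 18 (-1.48), and the averaged call was lost with library sizes alone (-0.10, edgeR adjusted p = 0.412) and on days 12 and 14 alone (-0.14, edgeR adjusted p = 0.511). The ratio of SLC1A5 to SLC1A4 per kilobase was 5.58 to 7.599 in DOX and 2.30 to 2.68 in UT on day 20. On day 12 it was 75.4 to 88.5 in DOX and 40.3 to 49.6 in UT. SLC1A3, a glutamate carrier known from glia, had at most 2.03 CPM and was not called on average (log2 0.55, edgeR adjusted p = 0.328; 2.13 without UT day 18 replicate 1, edgeR adjusted p = 0.00235).

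Sodium-coupled carriers of the SLC38 family gave 3 higher and 1 lower of 7 tested members, out of 11 in the table. SLC38A5 (SNAT5, chrX:48458537-48470256, minus strand), which carries glutamine, glycine and serine, separated the arms without overlap. Its DOX libraries ranged from 23.6 to 41.1 CPM (median 31.2), and its UT libraries over the same days from 9.92 to 19.5 CPM (median 16.0). All 10 DOX libraries lay above all 12 UT libraries, those of day 10 included at 22.0 and 19.6 CPM. SLC38A5 was 2.06-fold higher in DOX (log2 1.04, SE 0.10, edgeR adjusted p = 4.3e-08) and was called on all 5 days, with log2 values of 0.81 to 1.19. The F test over days called it in neither arm (edgeR adjusted p = 0.355 in DOX and 0.0871 in UT), though UT alone was lower on day 20 than on day 10 (log2 -0.68, SE 0.22, edgeR adjusted p = 0.0129). That fall of SLC38A5 was lost without UT day 20 replicate 2 (-0.38, edgeR adjusted p = 0.198) or UT day 10 replicate 1 (-0.62, edgeR adjusted p = 0.0635), and with only the groups compared (-0.60, edgeR adjusted p = 0.0875). The day 18 call (0.89) was lost without UT day 18 replicate 1 (0.64).

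SLC38A1 and SLC38A2 (SNAT1 and SNAT2), glutamine and alanine carriers, stood at the highest levels of the family per kilobase and fell steeply with time. SLC38A1 was 44.3 to 174 CPM in DOX (median 101) and 22.8 to 174 CPM in UT (median 43.5). On day 12 the arms overlapped, with 174 and 165 CPM in DOX and 174 and 157 CPM in UT, and from day 14 on each DOX pair was above its UT pair. Averaged, SLC38A1 was 1.67-fold higher in DOX (log2 0.74, SE 0.07, edgeR adjusted p = 7.17e-08), and the day 20 call (0.49) was lost without DOX day 20 replicate 1 (0.41) or UT day 20 replicate 1 (0.18).

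SLC38A2 was 157 and 156 CPM in DOX against 163 and 160 CPM in UT on day 12, and 64.8 and 59.8 CPM in DOX against 41.6 and 44.9 CPM in UT on day 20. Over the shared days it was 59.8 to 157 CPM in DOX (median 102) and 41.6 to 163 CPM in UT (median 58.7). The averaged difference was 1.37-fold (log2 0.46, SE 0.05, edgeR adjusted p = 6e-07). SLC38A7, a lysosomal glutamine carrier, was lower in DOX (log2 -0.58, SE 0.09, edgeR adjusted p = 1.92e-05), though not with library sizes alone (-0.05, edgeR adjusted p = 0.661) or on days 12 and 14 alone (-0.26, edgeR adjusted p = 0.187). SLC38A9, the lysosomal arginine sensor of the mTORC1 pathway, was not called (0.27, edgeR adjusted p = 0.0685, against 0.28 and 0.0286 by limma-voom), nor were SLC38A6 (0.15) and SLC38A10 (-0.14, and 0.40 with library sizes alone).

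In the SLC36 family of proton-coupled carriers, SLC36A1, which lets amino acids out of lysosomes, was 4.84 to 7.77 CPM in DOX (median 6.59) and 6.70 to 18.7 CPM in UT (median 10.8). It was 1.81-fold lower in DOX (log2 -0.85, SE 0.09, edgeR adjusted p = 3.49e-07), with calls on days 16, 18 and 20. With library sizes alone all 3 daily calls of SLC36A1 were lost, at -0.11 on day 16, -0.25 on day 18 and -0.34 on day 20 (edgeR adjusted p = 0.7, 0.378 and 0.233). SLC36A4 was not called on average (-0.15, edgeR adjusted p = 0.0954, and 0.39 with library sizes alone). SLC36A2 and SLC36A3 had 4 and 16 counts over all libraries.

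Both tested cationic carriers were higher in DOX. SLC7A1 (CAT1), the widespread arginine carrier, was 47.1 to 92.7 CPM in DOX (median 66.4) and 26.0 to 65.8 CPM in UT (median 36.2), 1.74-fold higher (log2 0.80, SE 0.07, edgeR adjusted p = 1.04e-08). SLC7A2 (CAT2), the inducible arginine carrier, was 5.97 to 26.4 CPM in DOX (median 8.50) and 2.18 to 19.4 CPM in UT (median 4.98), 1.93-fold higher (log2 0.95, SE 0.10, edgeR adjusted p = 2.59e-07). Each was called on days 14 to 20. The day 16 call of SLC7A2 (log2 0.69) was lost without DOX day 16 replicate 1 (0.39, edgeR adjusted p = 0.264) or UT day 16 replicate 1 (0.58, edgeR adjusted p = 0.116) and with only the groups compared (0.68, edgeR adjusted p = 0.0506). Its day 20 call (1.02) was lost without UT day 20 replicate 1 (0.65, edgeR adjusted p = 0.0907), by limma-voom (1.05, adjusted p = 0.0625) and with only the groups compared (1.00, edgeR adjusted p = 0.167). Both fell with time in both arms.

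The SLC43 facilitators gave no member higher and 2 lower. SLC43A3 (chr11:57406954-57427580, minus strand), a nucleobase carrier and the member with the highest mean CPM per kb, had 89.2 and 101 CPM in DOX at day 12, 97.2 and 97.6 at day 14, 103 and 107 at day 16, 150 and 182 at day 18, and 227 and 266 at day 20. UT libraries had 108 and 110 CPM of SLC43A3 at day 10, 78.9 and 70.7 at day 12, 108 and 133 at day 14, 215 and 204 at day 16, 308 and 334 at day 18, and 248 and 248 at day 20. DOX was above UT at day 12, below it on days 14, 16 and 18, and overlapped it at day 20. The averaged difference was 1.30-fold lower in DOX (log2 -0.38, SE 0.06, edgeR adjusted p = 1.78e-05), but it was 0.15 with library sizes alone and 0.02 on days 12 and 14 alone, so its direction depends on the scaling and on the days.

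SLC43A3 counts are also uncertain, because 29.9% of its exon bases are shared on the same strand with AP000781.2. AP000781.2 had 27781, 57509 and 16202 counts in DOX on days 12, 14 and 16, summed over both libraries, and 10 and 11 counts on days 18 and 20. In UT it had 7803, 28121 and 27300 counts on days 10, 12 and 14, and 19, 0 and 0 counts on days 16, 18 and 20. SLC43A3 itself had 13843 counts in DOX on day 12 and 10199 on day 20, and 12956 in UT on day 10 and 5410 on day 20. AP000781.2 thus lost its counts on day 18 in DOX and on day 16 in UT, and SLC43A3 was the leading member from day 18 in DOX and from day 14 in UT. The part of shared reads in the rise of SLC43A3 was not tested. That rise in UT, day 20 against day 10 (log2 1.18), was -0.99 with library sizes alone. SLC43A2 (LAT4), a leucine and phenylalanine carrier, was 8.61 to 15.6 CPM in DOX (median 10.8) and 14.2 to 21.3 CPM in UT (median 18.6), 1.63-fold lower (log2 -0.71, SE 0.08, edgeR adjusted p = 8.97e-07), and not called with library sizes alone (-0.17, edgeR adjusted p = 0.125). SLC43A1 (LAT3) was not called on average (-0.06, edgeR adjusted p = 0.532; 0.47 with library sizes alone).

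The SLC6 family had 19 members in the table and 11 tested, with 6 higher and 2 lower in DOX. SLC6A9 (GlyT1, chr1:43991500-44031467, minus strand), the glycine carrier known to supply haem synthesis in red cell precursors, had the highest fold among members with counts in every group. DOX libraries had 10.9 and 10.96 CPM at day 12, 8.83 and 8.14 at day 14, 7.44 and 6.09 at day 16, 4.38 and 5.42 at day 18, and 3.10 and 5.36 at day 20. UT libraries had 6.95 and 7.04 CPM of SLC6A9 at day 10, 3.94 and 2.98 at day 12, 1.74 and 1.12 at day 14, 1.73 and 1.44 at day 16, 0.156 and 0.510 at day 18, and 0.0989 and 0.257 at day 20. Every DOX pair exceeded its UT pair. SLC6A9 was 7.54-fold higher on average (log2 2.91, SE 0.17, edgeR adjusted p = 1.55e-10) and was called on all 5 days, with log2 values of 1.66 at day 12 and 4.50 at day 20. The late values, and through them the average, rest on few UT counts. A floor of 3 counts per library was 0.297 and 0.257 CPM in the UT day 20 libraries, and SLC6A9 was at or under it. In UT day 18 replicate 1 it was under the floor of 0.233 CPM too. Erythroid markers summed to 495 ± 33.3 CPM in DOX and 378 ± 21.4 in UT at day 12, and to 181 ± 5.01 in DOX and 95.1 ± 17.9 in UT on day 20 (SD, n = 2). Their sum on UT day 10 was 391 ± 8.75. Averaged over days, megakaryocyte markers (10 of 10) and endothelial markers (6 of 7 tested) were higher in DOX. On day 12 alone 0 of either list were called higher, and 2 megakaryocyte markers were called lower. The median log2 values on that day were -0.56 for megakaryocyte and -0.26 for endothelial markers. The part of any of these lists in the result was not tested.

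SLC6A8, the creatine carrier, went up and down with the day. Its DOX libraries had 62.0 and 62.7 CPM at day 12, 26.1 and 23.3 at day 14, 8.78 and 10.3 at day 16, 78.5 and 82.7 at day 18, and 5.66 and 4.73 at day 20. Its UT libraries had 27.1 and 21.2 CPM at day 10, 52.3 and 55.9 at day 12, 17.8 and 17.7 at day 14, 4.17 and 5.27 at day 16, 13.2 and 13.2 at day 18, and 3.26 and 7.01 at day 20. The DOX arm was high on days 12 and 18 and the UT arm at day 12, with replicates close together except in UT at day 20. The averaged difference (1.82-fold, log2 0.86, SE 0.09, edgeR adjusted p = 3.17e-07) was 0.42 without day 18, when SLC6A8 was 6.10-fold higher in DOX, and 0.34 and not called on days 12 and 14 alone (edgeR adjusted p = 0.0663). Day 20 showed no call for it. SLC6A6, the taurine carrier, was 13.2 to 87.5 CPM in DOX (median 29.5) and 10.3 to 102 CPM in UT (median 18.1), 1.25-fold higher in DOX on average (log2 0.33, SE 0.08, edgeR adjusted p = 0.00204), and not called on days 12 and 14 alone (0.14, edgeR adjusted p = 0.439).

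**Figure D3:**
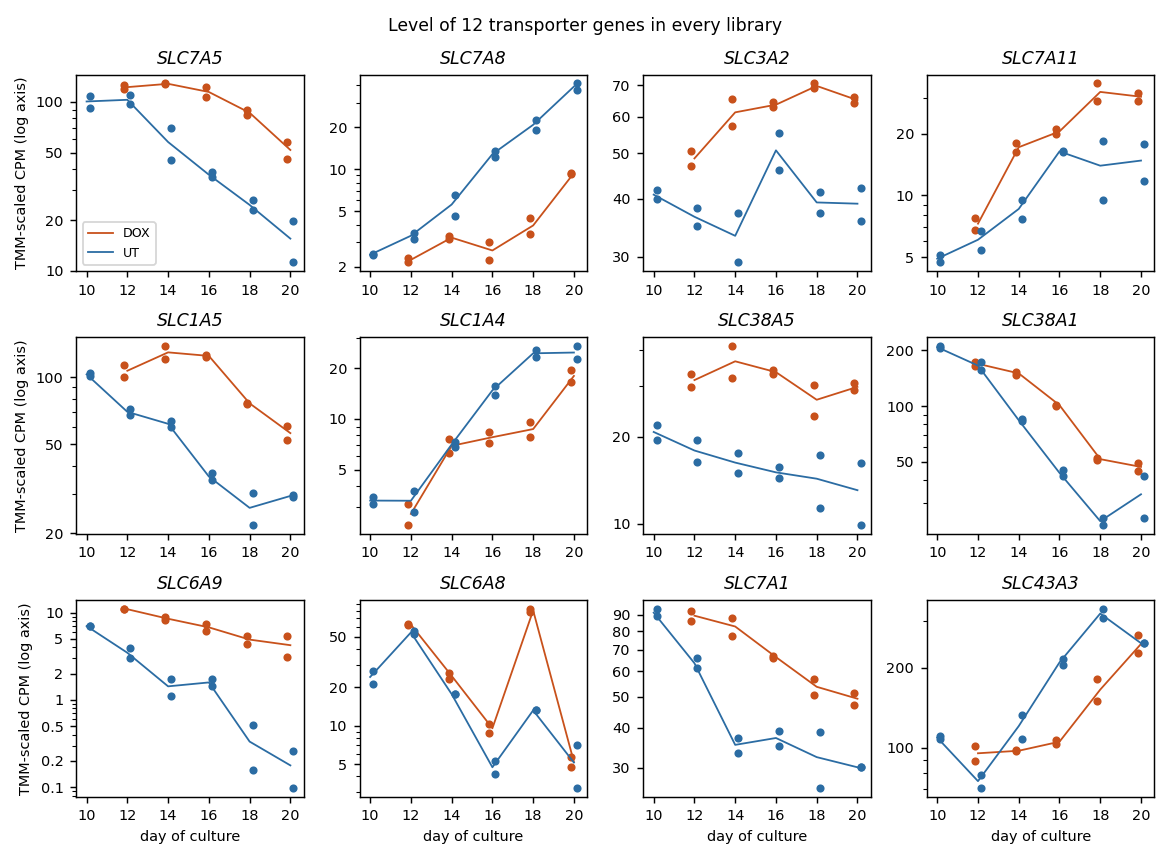
TMM-scaled CPM of 12 transporter genes (log axis) in every library by day of culture, DOX and UT, with lines through group means. SLC7A5, SLC1A5 and SLC6A9 fall with time and are higher in DOX on every shared day, and SLC38A1 from day 14 on; SLC7A8 rises to 41.1 and 37.0 CPM in UT on day 20 against 9.29 and 9.45 CPM in DOX; SLC6A8 in DOX is high on days 12 and 18.

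SLC6A11 and SLC6A15, both at low levels, were higher in DOX on average, and each was at 0 counts in UT on at least 1 late day. Over days 12 to 20 the GABA carrier SLC6A11 was 0.398 to 2.83 CPM in DOX (median 2.49) and 0 to 3.17 CPM in UT (median 0.567). SLC6A15, a neutral amino acid carrier of neurons, was 0.210 to 1.09 CPM in DOX (median 0.604) and 0 to 0.886 CPM in UT (median 0.186), so the arms' ranges overlapped for both genes. SLC6A11 had 181 counts in DOX on day 18 and 0 in UT, at least 14.0-fold higher against a floor of 3 counts per library. SLC6A15 had 31 counts in DOX on day 18 and 0 in UT, at least 2.38-fold higher. The fitted averaged log2 values of 2.84 for SLC6A11 and 3.45 for SLC6A15 (edgeR adjusted p = 5.99e-06 and 3.12e-05) depend on the treatment of zeros, and with groups at 0 counts set to the floor they were 1.63 and 0.92. On day 12 SLC6A11 had 139 and 186 counts in DOX and 168 and 192 in UT. On days 12 and 14 alone SLC6A11 was at 0.06 (edgeR adjusted p = 0.924) and SLC6A15 at 0.60 (edgeR adjusted p = 0.302).

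SLC6A2, the noradrenaline carrier, had 74 and 115 counts in DOX on day 12 and 37 and 57 in UT, and 0 counts in both arms on day 20. It was not called on average, but without day 20, where both arms were at 0, it was (log2 2.67, edgeR adjusted p = 0.0465). On day 16 it was called higher in DOX, with 16 counts in DOX and 0 in UT (at least 1.34-fold, edgeR adjusted p = 0.0295), and that call was lost without DOX day 16 replicate 2 or either UT day 16 library. Lower in DOX were SLC6A16, an orphan carrier, and SLC6A19, the neutral amino acid carrier of gut and kidney, both at low levels. SLC6A16 was 0.0427 to 0.929 CPM in DOX (median 0.243) and 0.300 to 1.48 CPM in UT (median 0.880), 2.91-fold lower (log2 -1.54, SE 0.36, edgeR adjusted p = 0.0014), and not called on days 12 and 14 alone (-0.37, edgeR adjusted p = 0.681). SLC6A19 (log2 -0.94, edgeR adjusted p = 0.022) was at 0.69 without UT day 20 replicate 2 (edgeR adjusted p = 0.583) and lost its call with library sizes alone, with limma-voom, without DOX day 16 replicate 2 or UT day 12 replicate 2, without day 14 or day 16, and on days 12 and 14 alone. The betaine carrier SLC6A12 (-1.62, edgeR adjusted p = 0.0502) and SLC6A13 (-0.26, edgeR adjusted p = 0.711) were not called.

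By day, few members were called on day 12 and more from day 14 on, as was the case over all genes. On day 12, SLC6A9, SLC38A5 and SLC1A5 were called higher and no member lower (0.845% and 2.26% of all genes, 3.11% together). SLC1A5 and SLC38A5 lost that call without any 1 of the 4 libraries of day 12 (0.53 to 0.70 and 0.69 to 0.95), and SLC38A5 also without either DOX day 16 or either UT day 10 library (0.82 each), and SLC6A9 lost it without DOX day 12 replicate 2 or UT day 12 replicate 2. The 0 members called lower by edgeR compare with 5 at an unadjusted p under 0.05, 3 by limma-voom and 3 by DESeq2. On day 14, 12 members were higher and 3 lower (15.3% and 11.7%, 27% together), on day 16 14 and 10 (21.2% and 18.7%, 39.9% together), on day 18 15 and 10 (19.8% and 16%, 35.8% together), and on day 20 14 and 3 (15.9% and 11.9%, 27.8% together). From day 12 to day 20 in order, the median over members was 0.03, 0.27, -0.06, 0.31 and 0.06, against -0.01 to 0.08 over all genes.

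**Figure D4:**
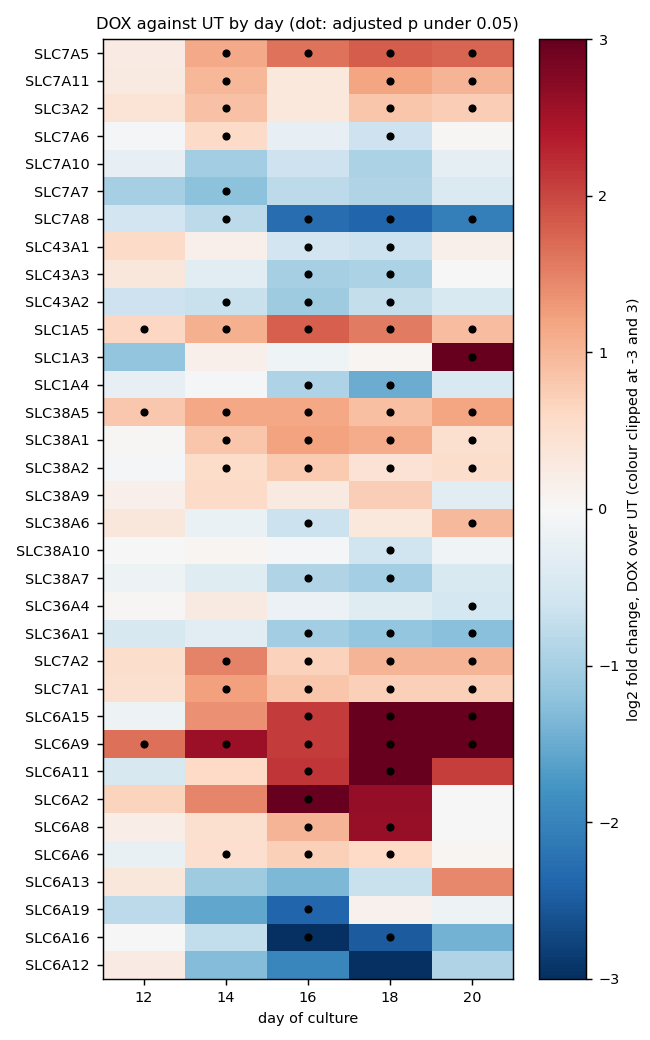
Log2 fold change of DOX over UT (colour, clipped at -3 and 3) for 34 of the 35 tested transporter genes on each shared day, with a dot where the edgeR adjusted p was under 0.05. SLC1A5, SLC38A5 and SLC6A9 carry a dot on all 5 days, and SLC7A8 carries one, for a lower level, from day 14 to day 20.

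A test of the change in the DOX against UT difference between days 12 and 20 called 4 members higher and 1 lower (5.62% and 3.34% of all genes, 8.96% together). The difference widened for SLC7A5 by 1.49 on the log2 scale (SE 0.29, edgeR adjusted p = 0.00334) and, downwards, for SLC7A8 by -1.49 (SE 0.28, edgeR adjusted p = 0.00235). SLC6A9 widened by 2.84 (SE 0.67, edgeR adjusted p = 0.0114), but by 2.37 and without a call when UT day 20 replicate 1 was left out, and by 2.55 without a call in limma-voom (adjusted p = 0.0693). Its UT day 20 libraries were at or under the floor of 3 counts. SLC38A2 widened by 0.57 (SE 0.16, edgeR adjusted p = 0.035), a call that was lost without any of 10 single libraries (0.51 to 0.59). With library sizes alone the change for SLC7A8 was -0.51 and not called (edgeR adjusted p = 0.193).

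Within each arm, changes with time were common among all genes as well as among the members. In UT, day 20 against day 10, 10 of 35 members were higher and 14 lower, against 28.1% and 34.2% of all genes (62.3% together), shares near the background. The rises were led by SLC7A8 (16.1-fold, log2 4.01, SE 0.22) and SLC1A4 (7.50-fold, log2 2.91, SE 0.21), apart from low counts of SLC6A12 and SLC7A10. The falls included SLC7A2 (7.98-fold lower, log2 -2.997, SE 0.25), SLC7A5 (6.45-fold lower, log2 -2.69, SE 0.22), SLC38A1 (6.23-fold lower, log2 -2.64, SE 0.17) and SLC6A6 (5.57-fold lower, log2 -2.48, SE 0.19). Between days 12 and 20, 12 members were higher and 12 lower in DOX (26.7% and 29.7%, 56.4% together), and 9 higher and 14 lower in UT (27.6% and 32.9%, 60.5% together). The members called higher in UT were all among those called higher in DOX (100% of the 9 and 75% of the 12), the members called lower in DOX were all among those called lower in UT (100% of the 12 and 85.7% of the 14), and none was called in opposite directions. Over all genes, these shares were 77.7% and 80.1% for higher calls and 83.7% and 75.4% for lower calls. Opposite calls were rare over all genes too. Of 5373 genes called higher in DOX, 59 were called lower in UT, and of 5967 called lower in DOX, 33 were called higher in UT. These directions are relative to the bulk of genes: with library sizes alone, 27 members were lower and 3 higher in UT between days 10 and 20.

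The F test over days called 25 of 35 members in DOX and 29 of 35 in UT, against 59.8% and 72.8% of all genes. SLC38A5, SLC1A3, SLC6A16, SLC6A19 and SLC7A10 were called in neither arm. Between days 12 and 20 SLC3A2 rose 1.33-fold in DOX (log2 0.41, SE 0.13, edgeR adjusted p = 0.0121), a change of -0.78 with library sizes alone and one that lost its call with no filter (0.32) or without DOX day 12 replicate 2 (0.33) or DOX day 20 replicate 2 (0.36), and was not called in UT (0.09, SE 0.14, edgeR adjusted p = 0.571), and the difference of these changes was not called (0.32, SE 0.19, edgeR adjusted p = 0.318). The ratio of SLC7A5 to SLC3A2 per kilobase was 2.72 to 2.76 in DOX on day 12 and 0.764 to 0.983 on day 20, and in UT 3.02 to 3.12 on day 12 and 0.292 to 0.6002 on day 20.

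Genes that act with these carriers were taken from lists written by hand. Targets of the amino acid response were higher in 21 and lower in 3 of 28 tested genes in DOX (median log2 fold change 0.68), beside 29.8% and 23% of all genes. Among them were the hormone genes ADM2 (3.13, SE 0.37) and STC2 (3.05, SE 0.17), the glutathione-degrading enzyme CHAC1 (3.01, SE 0.26) and the cysteine-forming enzyme CTH (2.91, SE 0.22). ATF4 itself, with the highest CPM of the list, was not called (0.03, SE 0.05, edgeR adjusted p = 0.694), at 246 CPM in DOX and 213 CPM in UT on day 12 and at 884 CPM in DOX and 823 CPM in UT on day 20.

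Enzymes that use the carried amino acids gave 25 higher and 8 lower genes in DOX among 42 tested (median log2 fold change 0.43), beside the same 29.8% and 23% of all genes. The glycine cleavage gene GLDC had 27 counts in DOX on day 18 and 0 in UT, and its fitted value of 4.02 depends on such zeros. The argininosuccinate synthase ASS1 was higher at 3.10 (SE 0.16), asparagine synthetase ASNS at 2.32 (SE 0.12), and arginase ARG1 was lower at -2.73 (SE 0.27). Glutamine synthetase GLUL, with the highest CPM of the list, was lower at -0.41 (SE 0.07). For ASNS the levels were 23.0 CPM in DOX and 6.53 CPM in UT on day 12, and 60.0 CPM in DOX and 6.09 CPM in UT on day 16.

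The mTORC1 amino acid sensing list had 11 higher and 10 lower of 36 (median 0.04), shares near the 29.8% and 23% of all genes. The GTPase RHEB (0.80, SE 0.05), the GATOR1 subunit NPRL3 (0.76, SE 0.07) and the leucine sensor relative SESN1 (0.67, SE 0.10) were higher, while the arginine sensor CASTOR1 (-1.18, SE 0.25) and the kinase EIF2AK4 (-0.34, SE 0.09), which senses uncharged transfer RNA, were lower. Amino acid and peptide carriers outside the families described here gave 7 higher and 7 lower among 18 tested (median log2 fold change -0.01, beside 0.08 and the same shares over all genes). Of these, the ornithine carrier of mitochondria SLC25A15 (0.87, SE 0.09) and the aromatic amino acid carrier SLC16A10 (0.93, SE 0.15) were higher, the peptide carrier SLC15A2 (-1.03, SE 0.14) was lower, and the vesicular glutamate carrier SLC17A7 had 53 counts in DOX and 0 in UT on day 20. The mitochondrial serine carrier SFXN1, with the highest CPM of the list, was not called (-0.02, SE 0.06).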

How the data were processed

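PolyA-selected RNA of 22 libraries was sequenced. Per the submitters' processing notes, the authors used Trim Galore 0.6.5, STAR, Salmon and hg38; other versions, strand setting, annotation release and the day doxycycline was added are not given in the sources used here. Values in the deposited gene table are estimated counts as the authors' quantification gave them, of which 88.3% were whole, and they were rounded here. Members are all rows named SLC1A, SLC3A, SLC6A, SLC7A, SLC36A, SLC38A or SLC43A with a final number, as given by the family rule; these and the pathway and marker lists were chosen with earlier results of these data known.

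Counts were fitted over all genes with edgeR 4.0.16 in R 4.3.3 (quasi-likelihood test, 11 group coefficients, TMM, filterByExpr with a minimum count of 10, residual degrees of freedom 11, biological coefficient of variation 0.184 in common). P-values were Benjamini-Hochberg adjusted over 20115 genes, and a call is an adjusted p under 0.05. The averaged comparison is the mean of the 5 daily differences. CPM per kb uses union exon lengths of GENCODE 29 on GRCh38. The floor is 3 counts per library; floors and intervals cover counting error only. Promoter windows are RefSeq's, found for 44 of the 59 members. Values by library, or lowest, median and highest per arm, are given for members called with a log2 fold change of at least 1 in size, for members whose difference changed between days 12 and 20, and for the 5 highest per kb; from each pathway list, up to 4 called genes of largest change and the one with the highest CPM are named. Other members and marker lists are named for completeness, and 1 tested member, included in all counts, is not reported here. Alternatives were DESeq2 1.42.0 (its test and its size factors), limma-voom (limma 3.58.1), library sizes alone, other filters, mitochondrially encoded genes removed, only the groups compared, a replicate block, single libraries or days left out, days 12 and 14 alone, a 2-fold minimum and, added after seeing the data, groups at 0 counts set to their floor. Tables and figures used Python 3.11.15, pandas 2.3.3, numpy 2.4.6 and matplotlib 3.10.9.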

Additional observations from a re-analysis of the deposited data

Results flagged for a closer look

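The DOX minus UT difference changed between day 12 and day 20, by edgeR's test of that change, for SLC7A8 (log2 -1.49), SLC7A5 (1.49), SLC6A9 (2.84) and SLC38A2 (0.57). The value for SLC6A9 fell below the call without UT day 20 replicate 1 (2.37), and that for SLC38A2 without any of 10 single libraries (0.51 to 0.59). SLC38A2 also lost its call with DESeq2 size factors (0.53), no filter (0.59) and only the groups compared (0.56).

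SLC7A6 was higher in DOX on day 14 (log2 0.58) and lower on day 18 (-0.61), and the difference between those days was not tested. The day 14 call was lost without DOX day 14 replicate 2 (0.49) or UT day 14 replicate 2 (0.28), and the day 18 call without DOX day 18 replicate 1 (-0.53) or UT day 18 replicate 2 (-0.56). SLC7A6 shares exon bases with SLC7A6OS, and the part of that gene's reads was not tested. SLC38A6 was lower in DOX on day 16 (log2 -0.65) and higher on day 20 (0.97), and the difference between those days was not tested either. The day 16 call of SLC38A6 (edgeR adjusted p = 0.0483) was lost with no filter (-0.61, edgeR adjusted p = 0.106), with mitochondrially encoded genes removed (-0.63, edgeR adjusted p = 0.0564) and without any single library other than those of UT days 18 and 20 (-0.68 to -0.59), and with library sizes alone the value was 0.28. Its day 20 call was lost without UT day 20 replicate 2 (0.71).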

How the results depend on the processing

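With library sizes alone, 23 members were higher and 3 lower on average, 1 was higher on day 12, and the lower members numbered 2 (day 16), 2 (day 18) and 1 (day 20). Over time, the same scaling gave 3 higher and 27 lower in UT (day 20 minus day 10), 4 and 22 in DOX (day 20 minus day 12), 2 and 28 in UT (day 20 minus day 12), and 22 higher and 0 lower for the change of the difference; over all genes the averaged calls were then 11581 higher and 1609 lower. Directions that turned with library sizes alone were, on average, SLC7A6 (0.47), SLC43A3 (0.15), SLC43A1 (0.47), SLC38A10 (0.40) and SLC36A4 (0.39); on day 16 SLC38A7 (0.034), SLC1A4 (0.013), SLC38A6 (0.28) and SLC43A1 (0.36); on day 18 SLC7A6 (0.30), SLC43A1 (0.27), SLC38A10 (0.31) and SLC43A2 (0.19); and on day 20 SLC36A4 (0.40). For UT day 20 minus day 10 they were SLC38A7 (-0.61), SLC36A1 (-0.44), SLC43A3 (-0.99), SLC7A11 (-0.60) and SLC43A2 (-1.24), for DOX day 20 minus day 12 SLC36A1 (-0.66), SLC43A2 (-0.62) and SLC3A2 (-0.78), and for UT day 20 minus day 12 SLC38A7 (-0.56), SLC36A1 (-0.87), SLC43A3 (-0.44), SLC38A6 (-1.47) and SLC7A11 (-0.90). On days 12 and 14 alone 4 members were lower on average, and SLC43A3 (0.020) and SLC43A1 (0.37) turned. SLC6A19 turned on average when UT day 20 replicate 2 was left out, with values of -1.12 to 0.69 over the single libraries. A 2-fold minimum left 7 higher and 2 lower. On day 12, limma-voom gave 6 higher and 3 lower, DESeq2 6 and 3, the replicate block 5 and 1, and only the groups compared 8 and 8, while no filter and a minimum of 1 CPM in 4 libraries gave 1 lower each. DESeq2 gave 5 lower on day 14, 6 lower on day 20 and 2 lower for the change; DESeq2 size factors and the CPM minimum gave 5 lower each on day 20. Only the groups compared gave 7 higher on day 20, and no filter gave 7 higher for DOX day 20 minus day 12. Apart from the counts that fewer samples or fewer genes bring by construction, the cause was not tested. With groups at 0 counts set to their floor the members' median stayed at 0.27.

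Leaving out 1 library at a time gave 15 to 17 members higher and 8 to 10 lower on average, 0 to 5 and 0 to 1 on day 12, 10 to 13 and 1 to 4 on day 14, 12 to 15 and 6 to 11 on day 16, 14 to 16 and 7 to 11 on day 18, and 9 to 15 and 3 on day 20. The ranges were 9 to 11 higher and 13 to 15 lower for UT day 20 minus day 10, 7 to 12 and 12 to 13 for DOX day 20 minus day 12, 7 to 10 and 13 to 15 for UT day 20 minus day 12, and 3 to 7 and 1 to 2 for the change; the F test over days called 26 to 31 in UT and 20 to 25 in DOX. A group left with 1 library is assumed to vary like the others. Of the values of single members, 5676 kept direction and side of the threshold, 246 fell below it, 31 passed it and 30 turned.

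Replicate numbers did not pair the libraries: deviations of same-numbered libraries correlated at -0.0156 to 0.195 over 55 pairs of groups, and 5 pairs were over 0.1. The block therefore stands for a shared number only.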

Other observations

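Several genes followed the level of the creatine carrier SLC6A8 most closely over the 11 group means, chosen after its values were seen. Highest were the kinase PNCK (r = 0.941), which overlaps SLC6A8, AC078883.1 (r = 0.941), the growth factor relative FGF11 (r = 0.936) and the glycolytic enzyme ALDOC (r = 0.936). Next came C4orf3 (r = 0.927), the glycolytic enzymes ALDOA (r = 0.924) and ENO2 (r = 0.92), MFGE8 (r = 0.917), ZNF568 (r = 0.909) and SLC25A42 (r = 0.908). The genes were picked for the highest r over all tested genes, so these values are a description.

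The other marker lists moved as follows in summed CPM over days 12 to 20, with calls from the averaged comparison. Megakaryocyte markers, 10 of 10 higher, were 748 to 8480 in DOX and 320 to 12100 in UT. Endothelial markers, 6 of 7 tested higher, were 109 to 693 in DOX and 73.9 to 942 in UT. Neutrophil markers, 9 of 10 lower, were 722 to 2110 in DOX and 1220 to 4070 in UT. Progenitor markers, 2 higher and 5 lower of 10, were 1170 to 1610 in DOX and 1320 to 1690 in UT. Fibroblast markers, 1 of 6 lower, were 14.0 to 31.1 in DOX and 11.5 to 546 in UT, the highest in a library of UT day 16. Pluripotency markers, 2 of 3 tested higher, were 11.8 to 138 in DOX and 8.94 to 110 in UT.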
